A study of Danio rerio with 20 samples.

Results

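The genes that take glucose apart, rebuild it and store it as glycogen were measured in bulk liver RNA of 20 adult male zebrafish from a pair of β-catenin-driven hepatocellular carcinoma (HCC) models. The list held 39 zebrafish gene names of glycolysis, gluconeogenesis and glycogen metabolism, and 38 of them were matched to 44 of the 32520 Ensembl identifiers in the count tables. Of these names, 18 matched a symbol outright, 17 matched a capital symbol without the paralog letter and 3 matched through a RefSeq symbol or synonym. No identifier carried the symbol pgk1, and that gene was not analysed here. For 12 symbols, 2 identifiers carry the same symbol, so the letter of the zebrafish paralog cannot be assigned and each such gene is given with its identifier. Genes are written in lower case with the symbol of the reference table.

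In the CreLox experiment, Tg(fabp10a-CreERT2;fabp10a-flox-beta-catenin) zebrafish with HCC (n = 4) and the same line without HCC (n = 2) were treated as larvae with 10 µM 4-hydroxytamoxifen (TAM) from 3 to 6 days post fertilization. Their sibling controls carried the Cre driver alone (n = 4) and received 0.1% ethanol over the same days. The study's methods give 0.1% ethanol in the TAM solution too. All 10 fish were 11 months old, and recombination by the drug-activated Cre places activated β-catenin under the hepatocyte promoter fabp10a. In the HepABC experiment, untreated Tg(fabp10a-pt-beta-catenin) zebrafish with HCC (n = 5), whose hepatocytes carry activated β-catenin under fabp10a directly, were compared with untreated non-transgenic siblings, labelled as wild type (n = 5), all at 6 months. TAM and the lox transgene follow the same CreLox groups and cannot be told apart, and both CreLox comparisons use the same 4 controls. Each library came from 1 piece of a dissected liver, so a lower proportion of hepatocytes and less RNA per hepatocyte cannot be told apart. Histology used the other piece of each liver, and tumour below means a liver diagnosed with HCC.

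Glycolysis splits glucose into pyruvate in the cytosol, and gluconeogenesis runs largely the same reversible steps backward, with separate enzymes at the steps that cannot be reversed. Several steps are served by isozymes, products of related genes with tissue-biased expression. In vertebrates the liver relies on forms such as glucokinase, L-type pyruvate kinase, liver glycogen synthase and liver glycogen phosphorylase, which let it take up, store and release glucose for the rest of the body. Muscle and most other tissues use other hexokinases, M-type pyruvate kinase, muscle glycogen synthase and muscle or brain phosphorylase. Liver tumours in mammals are known for exchanging liver isozymes for forms of other tissues.

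Total counts ranged from 20903187 to 37994885 per library. Levels are given as CPM, the counts of a gene relative to the scaled total of its library. The 15 hepatocyte markers, such as fabp10a, tfa and apoa1b, were present in all 5 groups. Their summed level was 37281 to 77860 CPM in HepABC HCC, against 238537 to 309538 CPM in non-transgenic controls, and 133952 to 170706 CPM in CreLox HCC, against 159258 to 286230 CPM in Cre driver controls. The summed level of 22 identifiers of skeletal muscle markers lay between 0.817 and 5.64 CPM in all 20 fish. Exocrine pancreas markers summed to 25.3 to 11247 CPM in non-transgenic controls, which overlapped the 17.95 to 38.2 CPM of HepABC HCC. Erythrocyte markers summed to 30.01 to 76.4 CPM in HepABC HCC, against 337 to 731 CPM in non-transgenic controls. The 6 identifiers of biliary markers summed to 4096 to 7444 CPM in HepABC HCC, against 877 to 2167 CPM in non-transgenic controls. In the CreLox experiment they summed to 1469 to 3072 CPM with HCC and 1542 to 2097 CPM without, against 889 to 1421 CPM in Cre driver controls. Most of each biliary sum came from krt18a.1 and anxa4. In CreLox HCC every biliary identifier but krt18a.1 overlapped the controls, such as epcam at 10.45 to 22.65 CPM, against 15.45 to 47.52 CPM. Intestine markers in the CreLox experiment summed to 209 to 446 CPM with HCC and 237 to 276 CPM without, against 96.2 to 196 CPM in controls. The highest intestine marker in every fish of that experiment was fabp2, at 385 CPM in fish 623. In the HepABC experiment intestine markers summed to 128 to 459 CPM with HCC, against 83.3 to 2105 CPM in non-transgenic controls. The highest of these controls were fish 317C5 (2105 CPM) and 317C2 (766 CPM). The part of these cell types in the changes below was not tested. Tumour 624 stood apart from the other 3 CreLox HCC livers, with a chi-square per degree of freedom between libraries of 150 to 194, against 72.3 to 90.9 among those 3. Libraries of other groups differed as well. The value was 65.7 to 193 between Cre driver controls, 69.4 to 329 between non-transgenic controls and 194 to 492 between HepABC tumours. Among Cre driver controls it was 96.2 between fish 630 and 628 and 65.7 between fish 621 and 622, but 165 to 193 across these pairs. In CreLox HCC 996 genes were called without tumour 624, against 707 with it. The members called in CreLox HCC (gckr, aldoa and g6pc1a.1) remained called.

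Of the 44 identifiers, 35 passed the filter on low counts in the HepABC experiment and 37 in the CreLox experiment. In HepABC HCC against non-transgenic controls, 19 of 35 were significantly dysregulated (edgeR quasi-likelihood test, Benjamini-Hochberg adjusted p under 0.05), against 33.7% of all genes tested. Of these, 7 were higher, where 17.4% of all genes were higher, and 12 were lower, where 16.2% were lower. The median log2 change of the 35 was -0.39, against -0.00 for all genes. In CreLox HCC against Cre driver controls, 3 of 37 were significantly dysregulated, against 4.2% of all genes, of which 2 were higher (2.39% of all genes) and 1 was lower (1.81% of all genes). The median log2 change of the 37 was -0.49, against -0.05 for all genes.

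**Figure D1:**
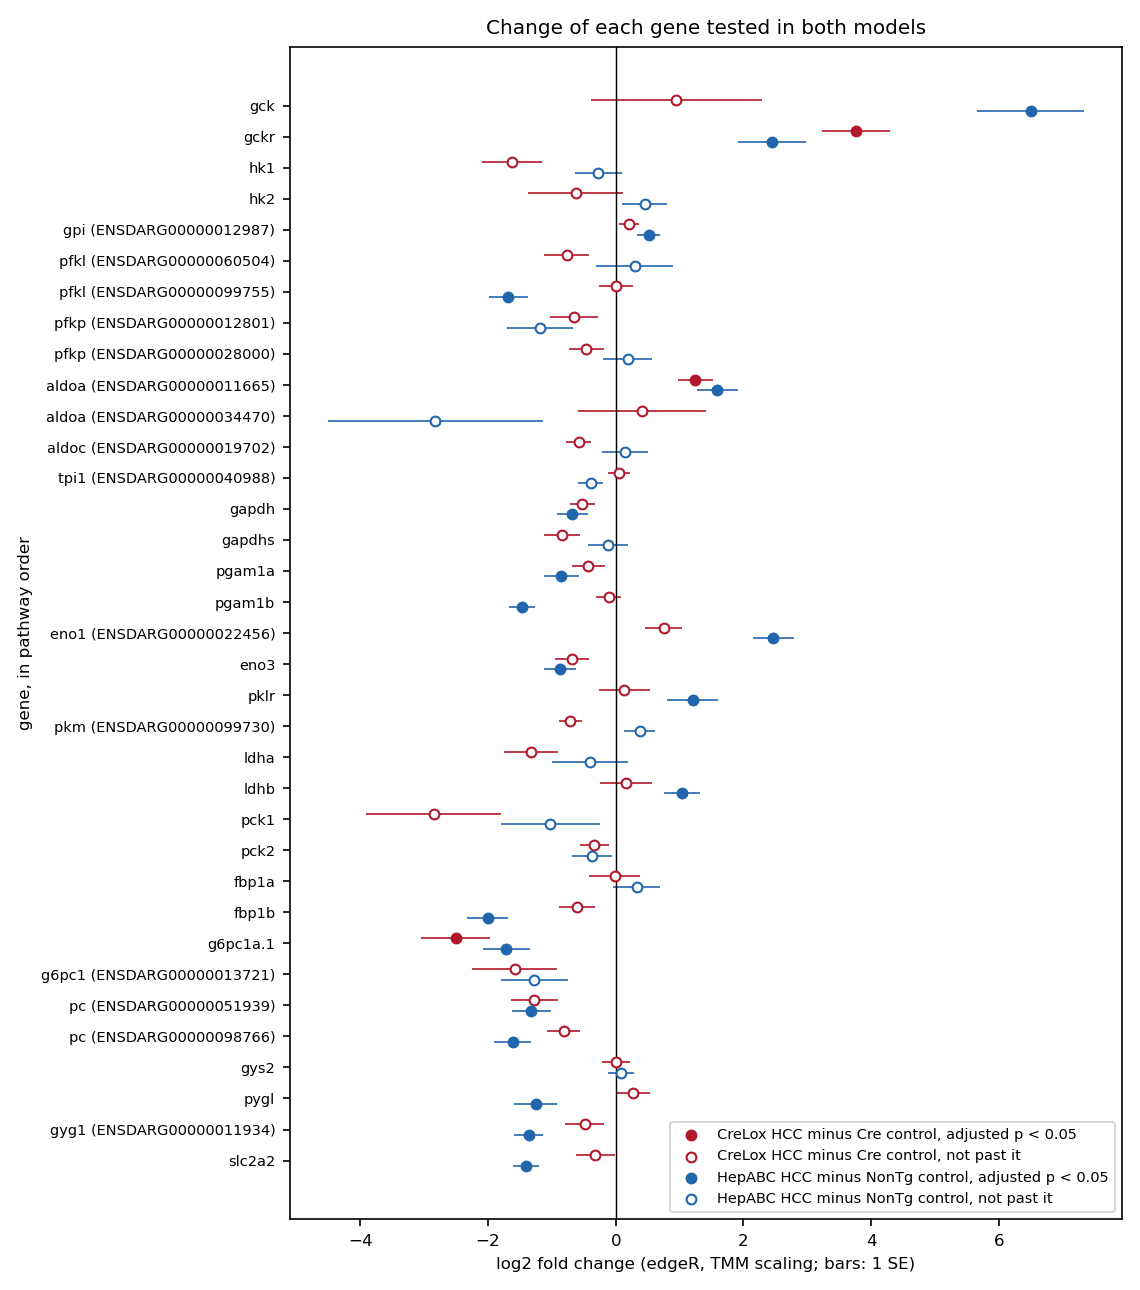
Change of each of the 35 genes tested in both models, in pathway order. The horizontal axis gives the log2 fold change of CreLox HCC over Cre driver controls (red) and of HepABC HCC over non-transgenic controls (blue), bars give 1 SE, and filled points passed an adjusted p of 0.05. The red filled points are gckr, aldoa and g6pc1a.1, while 19 blue points are filled, 12 of them left of 0.

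The HepABC values depended on how libraries were scaled. The changes above use TMM factors, which centre most genes near no change, and with library size alone the median of all genes in HepABC HCC moved to 0.87 on the log2 scale. Under library size 20 of the 35 genes were dysregulated, 14 higher (50.1% of all genes were higher) and 6 lower (5.38% of all genes were lower). The 7 genes called higher under TMM were also called higher under library size, and 6 of the 12 lower genes were also called lower: pfkl (ENSDARG00000099755), pgam1b, fbp1b, g6pc1a.1, pc (ENSDARG00000098766) and slc2a2. The other 6 (gapdh, pgam1a, eno3, pc (ENSDARG00000051939), pygl and gyg1) lost the call, and gapdh and pgam1a changed sign, to 0.21 and 0.05. In CreLox HCC, library size moved the median of all genes to 0.22 and the same 3 genes were called. Ratios between isozymes, which do not depend on the scaling, are given after the single genes.

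**Figure D2:**
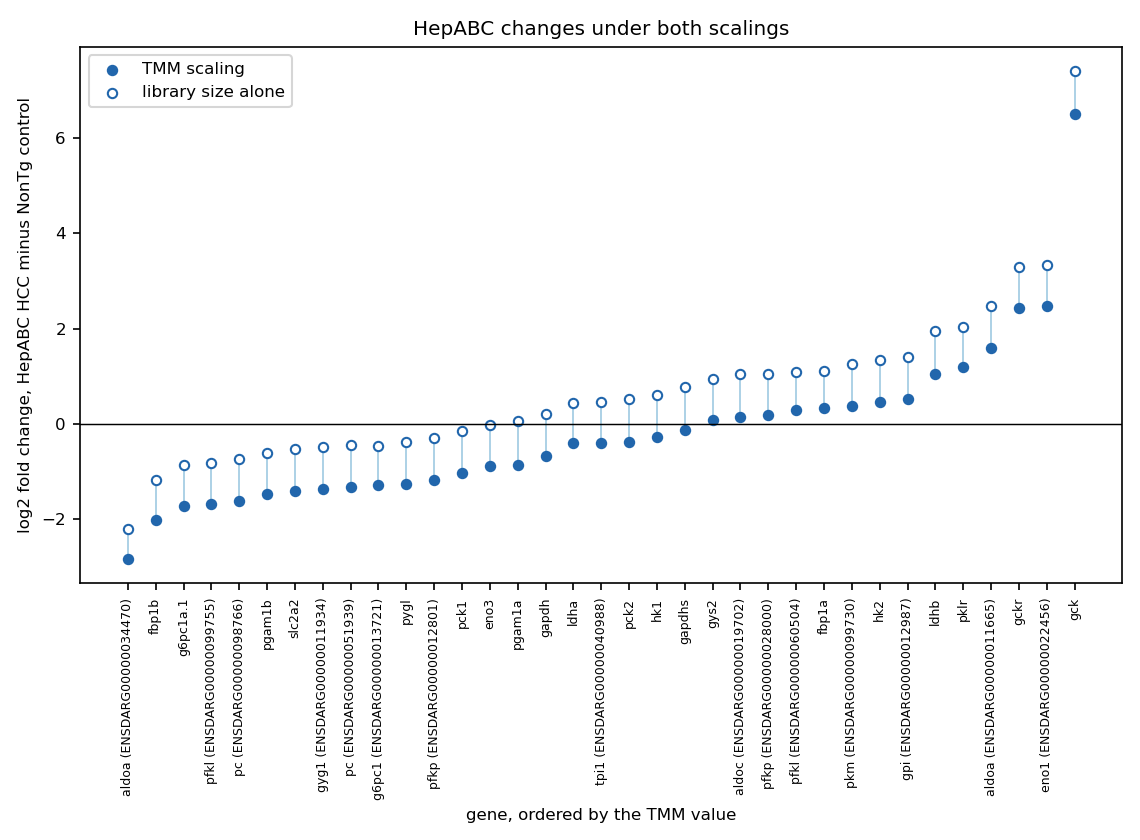
Log2 fold change of HepABC HCC over non-transgenic controls for the 35 genes tested, ordered along the horizontal axis by the TMM value. Filled points use TMM factors and open points use library size alone. Every open point lies above its filled point, and the 7 genes called higher stay above 0 under both. Of the 12 genes called lower under TMM, gapdh and pgam1a cross 0. Genes without a call under TMM, such as tpi1 (ENSDARG00000040988), cross 0 too.

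Glucose enters hepatocytes through glut2, the product of slc2a2, and is phosphorylated by glucokinase (gck), which the glucokinase regulator (gckr) holds in the nucleus in mammals when fructose 6-phosphate is high. The largest change among all members was in gck. Its level was 91.9, 4.04, 40.8, 147 and 38.5 CPM in HepABC HCC, against 0.837, 0.996, 0.788, 0.499 and 0.442 CPM in non-transgenic controls. Every HepABC fish was above every control, with fish 317E6 far below the other tumours. The log2 change was 6.49 ± 0.84 (SE, n = 5 each), or 89.99-fold (edgeR adjusted p = 0.00033). In CreLox HCC, gck was at 3.53, 13.8, 1.05 and 0 CPM, at 0.618 and 3.74 CPM in CreLox zebrafish without HCC, and at 0.507, 7.76, 0.606 and 0.534 CPM in Cre driver controls. These groups overlapped, and the change in CreLox HCC (0.95 ± 1.34) did not pass the test (adjusted p = 0.71). The 0 in fish 624 allows up to 0.13 CPM, the level of 3 counts.

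Because glucokinase is also made in pancreatic β cells, endocrine pancreas markers were read beside it. Of 10 markers, ins was at most 0.265 CPM and insb was at 0 in all 20 fish. The summed level was 2.12 to 81.4 CPM in HepABC HCC, against 0.147 to 2.9 CPM in non-transgenic controls, and 0.738 to 38.6 CPM in CreLox HCC, against 0.534 to 2.65 CPM in Cre driver controls. The gene gcga, which encodes proglucagon, reached 79.9 CPM in HepABC HCC and made up most of the sum in every HepABC tumour. In these tumours scg3 was at 0.364 to 2.004 CPM, and every other marker was at most 0.0364 CPM. The part of endocrine cells in the gck result was not tested. Without fish 317E5 and 317E6, in which gcga was highest, the log2 change of gck was 6.76 (edgeR adjusted p = 0.00034). The 3 tumours that remained had 1.55 to 9.26 CPM of gcga, above the 0.0368 to 1.25 CPM of the controls. The choice to leave them out was made after seeing the data.

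The regulator gckr was higher in all 3 groups of fish with a β-catenin transgene. Its level was 7.09, 10.4, 14.3 and 4.77 CPM in CreLox HCC and 7.26 and 8.69 CPM in CreLox zebrafish without HCC, against 1.06, 0.928, 0.519 and 0.146 CPM in Cre driver controls. It was 9.01, 9.33, 8.59, 5.34 and 9.45 CPM in HepABC HCC, against 2.17, 0.606, 0.21, 2.75 and 1.92 CPM in non-transgenic controls. No fish with a β-catenin transgene overlapped its controls. The log2 change was 3.76 ± 0.53 in CreLox HCC (adjusted p = 0.0070), 3.56 ± 0.58 in CreLox zebrafish without HCC (adjusted p = 0.039) and 2.44 ± 0.53 in HepABC HCC (adjusted p = 0.0053). The call held with each fish left out in turn in both HCC comparisons. In CreLox zebrafish without HCC, gckr was the only 1 of 37 members called, against 0.315% of all genes, and the call was lost when fish 630, 628, 621, 625 or 609 was left out (adjusted p 0.070 to 0.18).

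The transporter slc2a2 was lower in HepABC HCC, at 175, 188, 238, 140 and 222 CPM, against 543, 633, 484, 382 and 502 CPM in non-transgenic controls. The groups were apart, and the log2 change was -1.40 ± 0.21 (adjusted p = 0.00072). In the CreLox experiment it was at 261, 228, 208 and 357 CPM with HCC and 352 and 291 CPM without, against 215, 221, 496 and 382 CPM in controls, where the HCC difference did not pass the test (-0.32 ± 0.30, adjusted p = 0.55). Its counterpart of most other tissues, slc2a1 (ENSDARG00000007412), was at 1.17, 3.45, 2.35 and 2.13 CPM in CreLox HCC and 2.55 and 2.84 CPM in CreLox zebrafish without HCC, against 20.2, 15.7, 10.4 and 7.09 CPM in Cre driver controls, with no overlap. The log2 change in CreLox HCC was -2.55 ± 0.40 (adjusted p = 0.010).

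The hexokinases of most other tissues, hk1 and hk2, lay between 0.671 and 7.2 CPM in all 20 fish and passed no test under TMM scaling. In CreLox HCC the log2 change of hk1 was -1.63 ± 0.47 (adjusted p = 0.078). A further hexokinase, hkdc1, from the list of other pathway genes, was at 44.3, 40.7, 34.1, 56.1 and 16 CPM in HepABC HCC, against 5.74, 9.48, 4.99, 12.4 and 3.24 CPM in non-transgenic controls. This is a log2 change of 2.42 ± 0.41 (adjusted p = 0.0015), and in CreLox HCC it was 0.18 ± 0.45 (adjusted p = 0.84).

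Downstream of glucose 6-phosphate, the isomerase gpi (ENSDARG00000012987) was at 316, 377, 266, 269 and 332 CPM in HepABC HCC, against 199, 183, 248, 256 and 205 CPM in non-transgenic controls. The groups were apart by a narrow margin, with a log2 change of 0.51 ± 0.18 (adjusted p = 0.047). Phosphofructokinase commits sugar to glycolysis, and its liver form pfkl (ENSDARG00000099755) fell in HepABC HCC. The level was 14.9, 5.76, 11.5, 9.23 and 14.5 CPM, against 35.9, 58.1, 26.8, 27.8 and 30.9 CPM in non-transgenic controls. No fish overlapped, and the log2 change was -1.68 ± 0.31 (adjusted p = 0.0021). In the CreLox experiment the level was 35.5, 23, 45.4 and 46.5 CPM with HCC and 35.4 and 34.9 CPM without, against 34.2, 25.8, 50.3 and 39.8 CPM in controls, a log2 difference of 0.00 ± 0.27 with HCC. The other liver-form identifier, the muscle forms (pfkm) and the platelet forms (pfkp) were at most 3.7 CPM in every fish and passed no test under TMM scaling.

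Aldolase splits fructose 1,6-bisphosphate, and the form of muscle and most other tissues, aldoa (ENSDARG00000011665), was the 1 glycolytic enzyme that rose in both models. It was at 81.8, 67.2, 66.9 and 59.13 CPM in CreLox HCC and 51.2 and 47.8 CPM in CreLox zebrafish without HCC, against 41, 29.7, 15.4 and 29.7 CPM in Cre driver controls. It was at 102, 170, 63.6, 82.3 and 75.5 CPM in HepABC HCC, against 29.7, 27.1, 36.4, 50.8 and 20 CPM in non-transgenic controls. In each experiment every fish with HCC was above every control. The log2 change was 1.25 ± 0.27 in CreLox HCC (adjusted p = 0.033) and 1.59 ± 0.32 in HepABC HCC (adjusted p = 0.0037), while CreLox zebrafish without HCC differed by 0.77 ± 0.32 (adjusted p = 0.46). The CreLox call was lost when fish 604, 605, 623, 628 or 622 was left out (adjusted p 0.059 to 0.10), with log2 changes of 1.15 to 1.27.

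The other identifier of aldoa, ENSDARG00000034470, varied between fish of 1 group. It was at 27.5, 22.5, 0.21, 0.15 and 50.1 CPM in non-transgenic controls, and at 0.0364 to 13.6 CPM in HepABC HCC, where its difference of -2.83 ± 1.68 did not pass the test (adjusted p = 0.22). Triose phosphate isomerase, tpi1 (ENSDARG00000040988), and the brain form aldoc (ENSDARG00000019702), at 3.13 to 10.5 CPM in all 20 fish, passed no test under TMM scaling.

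In the lower steps of glycolysis, the dehydrogenase gapdh (-0.68 ± 0.24, adjusted p = 0.049) and the phosphoglycerate mutase pgam1a (-0.85 ± 0.27, adjusted p = 0.032) were lower in HepABC HCC with overlap between the groups, and both changed sign under library size. The second mutase gene, pgam1b, was at 13.5, 11.9, 17.5, 9.07 and 12.5 CPM in HepABC HCC, against 43.8, 37.3, 34.8, 30.4 and 31.3 CPM in non-transgenic controls. Its groups were apart by a wide margin, with a log2 change of -1.46 ± 0.20 (adjusted p = 0.00048). In CreLox HCC it was at 30.9, 26.9, 19.7 and 32.5 CPM, in CreLox zebrafish without HCC at 21.8 and 23.9 CPM, and in Cre driver controls at 35, 24, 27.8 and 32.1 CPM, which overlapped.

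Enolase makes phosphoenolpyruvate. The widely expressed eno1 (ENSDARG00000022456) was at 79, 38.6, 60.7, 39.6 and 72.7 CPM in HepABC HCC, against 12.4, 8.23, 12.2, 14.5 and 5.3 CPM in non-transgenic controls. Every tumour exceeded every control, and the log2 change was 2.47 ± 0.32 (adjusted p = 0.00034). In the CreLox experiment it was at 25.5, 11.3, 17.4 and 10.8 CPM with HCC and 16.8 and 14.4 CPM without, against 12.2, 8.26, 7.75 and 10.4 CPM in controls, a log2 difference of 0.75 ± 0.29 with HCC that missed the threshold (adjusted p = 0.16). The gene eno3, the muscle type in mammals, was by contrast at 1968, 1249, 2448, 2294 and 1113 CPM in HepABC HCC, against 3594, 3598, 2911, 2997 and 3546 CPM in non-transgenic controls (-0.88 ± 0.25, adjusted p = 0.019). The groups were apart, and under library size the log2 change was -0.02. It was at 3110, 1451, 1737 and 2092 CPM in CreLox HCC, against 3186, 2497, 3921 and 3916 CPM in Cre driver controls (-0.69 ± 0.27, adjusted p = 0.16). Most enolase counts in these livers were from eno3, with at least 46710 in every library, against at most 4016 of eno1 (ENSDARG00000022456). Skeletal muscle markers were near 0 in the same livers, and the part of muscle cells in the eno3 counts was not tested.

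**Figure D3:**
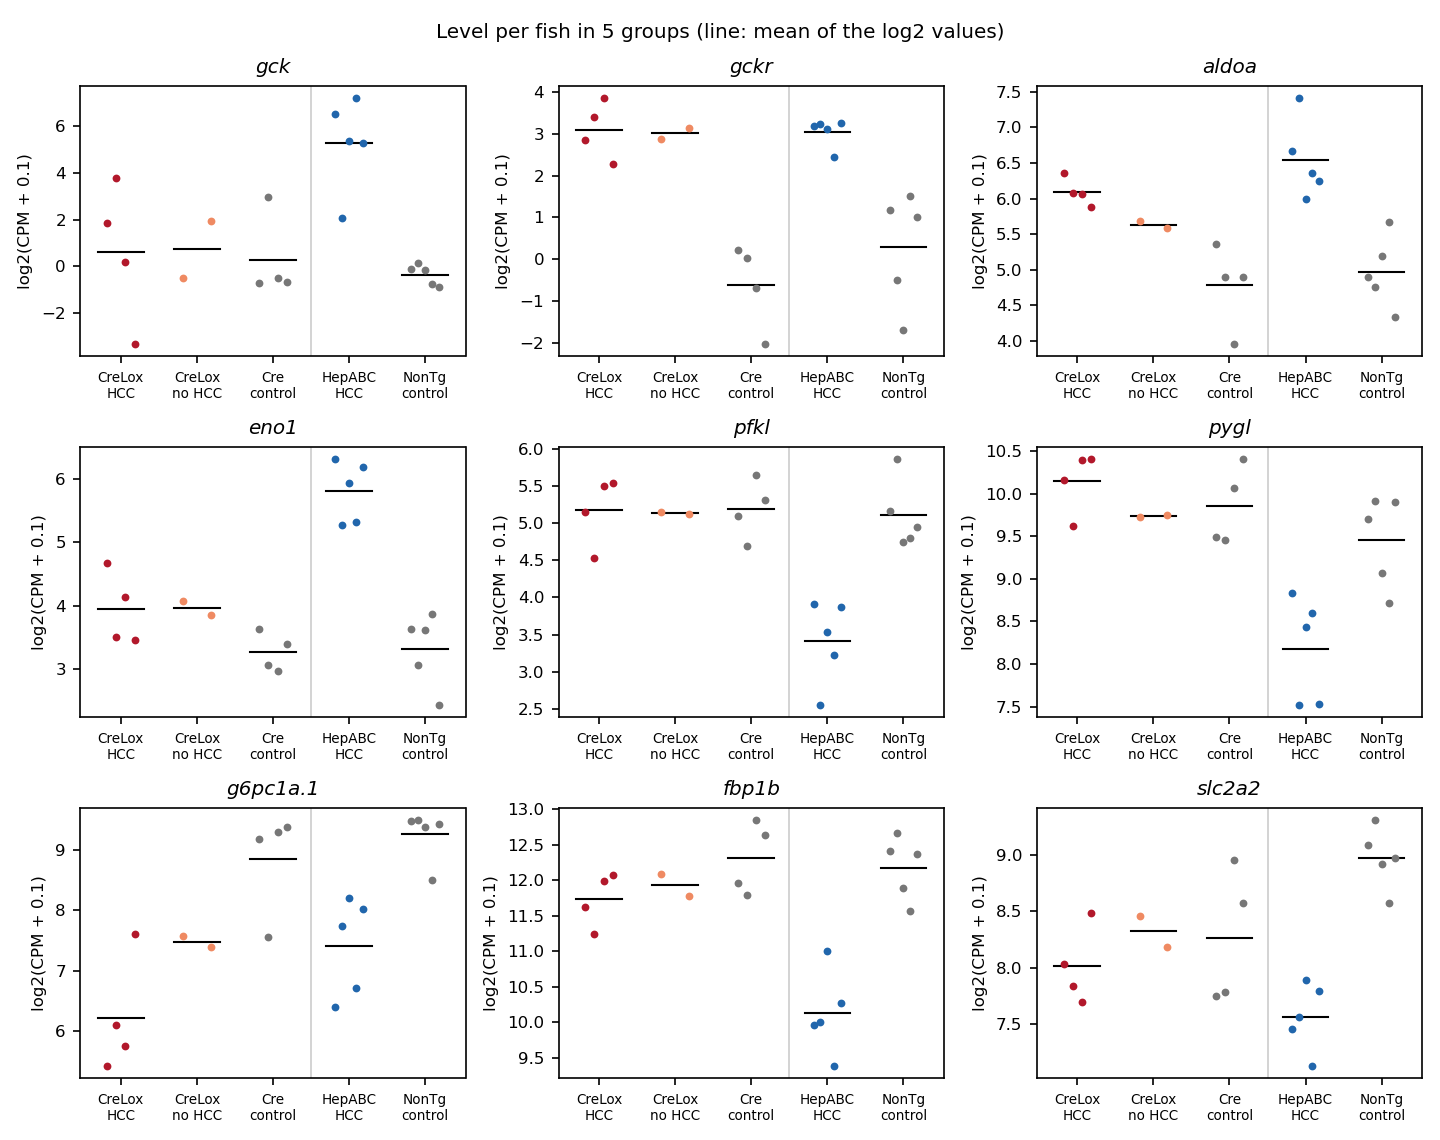
Level per fish of 9 genes, as log2(CPM + 0.1) on the vertical axis, in CreLox HCC, CreLox without HCC, Cre driver controls, HepABC HCC and non-transgenic controls; each point is 1 fish and the line is the mean. gckr and aldoa are higher in all HCC fish of both models, and g6pc1a.1 is lower with 1 overlapping control in the CreLox experiment. gck, eno1, pfkl, fbp1b and slc2a2 separate HCC fish from controls without overlap in the HepABC experiment but not in the CreLox experiment, while pygl overlaps in both. CreLox fish without HCC lie above every Cre driver control in eno1.

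Pyruvate kinase closes glycolysis. The liver and red cell form pklr was at 2252, 1892, 7345, 6173 and 2517 CPM in HepABC HCC, against 2117, 1992, 1289, 1346 and 2020 CPM in non-transgenic controls. Fish 317E9 and 317E10 were far above the rest and 317E6 was within the controls, with a log2 change of 1.203 ± 0.40 (adjusted p = 0.036). The erythrocyte markers given above were lower in every HepABC tumour than in any control, and the part of red cells in the pklr change was not tested. In CreLox HCC pklr was at 1756, 2457, 1865 and 1506 CPM, against 596, 1223, 2168 and 2910 CPM in Cre driver controls, which enclosed all 4. The muscle and tumour form pkm (ENSDARG00000099730) did not pass the test in either model under TMM scaling (0.38 ± 0.24 in HepABC HCC, adjusted p = 0.25, and -0.71 ± 0.18 in CreLox HCC, adjusted p = 0.053). Its level was 41.6, 40.1, 30.8, 42.7 and 32.6 CPM in HepABC HCC, against 20.1, 20, 38.9, 40.2 and 25.3 CPM in non-transgenic controls, which overlapped. Under library size its HepABC change was 1.26 (adjusted p = 0.0026). In CreLox HCC it was 17.2, 16.9, 22 and 15.5 CPM and in CreLox zebrafish without HCC 21.6 and 17 CPM, all below the 30.3, 30.8, 24.5 and 31.8 CPM of Cre driver controls.

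Lactate dehydrogenase interconverts pyruvate and lactate. The heart-type gene ldhb (ENSDARG00000019644) was at 417, 515, 236, 474 and 282 CPM in HepABC HCC, against 281, 137, 154, 157 and 205 CPM in non-transgenic controls (1.04 ± 0.28, adjusted p = 0.015). Its paralog ldhbb moved the other way, at 740, 528, 978, 472 and 776 CPM in HepABC HCC, against 2173, 1858, 1951, 1104 and 2769 CPM in non-transgenic controls (-1.50 ± 0.28, adjusted p = 0.0025). The muscle-type ldha ranged from 4.03 to 59.6 CPM among the non-transgenic controls and passed no test.

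Gluconeogenesis begins with pyruvate carboxylase. Both pc identifiers were lower in HepABC HCC. The first, ENSDARG00000051939, was at 78.4, 34.9, 55.5, 26 and 40 CPM, against 100, 134, 124, 76.8 and 150 CPM in non-transgenic controls (-1.32 ± 0.31, adjusted p = 0.0077), with tumour 317E5 above control 317C5. The other, ENSDARG00000098766, was at 191, 134, 133, 69.6 and 135 CPM, against 474, 422, 279, 308 and 543 CPM in non-transgenic controls (-1.62 ± 0.29, adjusted p = 0.0018), with no overlap. In CreLox HCC the log2 differences from Cre driver controls were -1.28 ± 0.37 and -0.82 ± 0.25, without overlap but without passing the test (adjusted p = 0.080 and 0.095).

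The step from oxaloacetate to phosphoenolpyruvate is run by pck1 in the cytosol, a gene induced by fasting in mammals, and by pck2 in mitochondria. The level of pck1 varied widely between fish of 1 group. It was at 248, 70.8, 66 and 1539 CPM in CreLox HCC and 213 and 1236 CPM in CreLox zebrafish without HCC, against 5148, 1133, 4801 and 2788 CPM in Cre driver controls. It was at 293, 741, 1561, 2462 and 843 CPM in HepABC HCC, against 5086, 5119, 607, 457 and 755 CPM in non-transgenic controls, where 2 fish stood far above the other 3. The log2 changes of -2.85 ± 1.06 in CreLox HCC (adjusted p = 0.14) and -1.03 ± 0.78 in HepABC HCC (adjusted p = 0.34) did not pass the test. The mitochondrial pck2 passed no test either.

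Fructose bisphosphatase reverses the phosphofructokinase step. Its main liver gene here, fbp1b, was at 996, 1029, 2043, 668 and 1239 CPM in HepABC HCC, against 5421, 6482, 3789, 3031 and 5262 CPM in non-transgenic controls. The highest tumour was below the lowest control, and the log2 change was -2.01 ± 0.32, or 4.01-fold lower (adjusted p = 0.0011). In the CreLox experiment fbp1b was at 3161, 2414, 4069 and 4308 CPM with HCC and 4369 and 3500 CPM without, against 3986, 3538, 7345 and 6358 CPM in controls (-0.61 ± 0.28 with HCC, adjusted p = 0.23). The paralog fbp1a passed no test under TMM scaling.

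Glucose 6-phosphatase releases free glucose, the last step of gluconeogenesis and of glycogen breakdown in liver. The gene g6pc1a.1 was lower in both models. It was at 42.9, 68.8, 54 and 195 CPM in CreLox HCC and 191 and 167 CPM in CreLox zebrafish without HCC, against 575, 187, 624 and 663 CPM in Cre driver controls. It was at 84.4, 212, 294, 105 and 260.5 CPM in HepABC HCC, against 709, 715, 660, 363 and 684 CPM in non-transgenic controls. The HepABC groups were apart, while in the CreLox experiment control fish 628 lay below tumour 624. The log2 change was -2.51 ± 0.54 in CreLox HCC (adjusted p = 0.032), -1.52 ± 0.67 in CreLox zebrafish without HCC (adjusted p = 0.49) and -1.71 ± 0.36 in HepABC HCC (adjusted p = 0.0047). The CreLox call was lost when fish 604, 605, 623, 630, 621 or 622 was left out (adjusted p 0.062 to 0.10), and it held without fish 628 (-2.78, adjusted p = 0.027) and without fish 624 (-3.20, adjusted p = 0.0054). A further glucose 6-phosphatase gene, g6pc1 (ENSDARG00000013721), ranged from 364 to 6548 CPM over the 20 fish and passed no test.

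Glycogen is started on glycogenin, extended by glycogen synthase and branching enzyme, and broken down by glycogen phosphorylase. The liver synthase gys2 did not pass the test in any comparison under TMM scaling, at 286, 382, 545, 380.5 and 342 CPM in HepABC HCC, against 399, 400, 348, 303 and 370 CPM in non-transgenic controls (0.09 ± 0.20). The groups overlapped, and under library size gys2 was called higher (adjusted p = 0.00086). In CreLox HCC it was at 258, 246, 228 and 288 CPM, against 214, 180.3, 350 and 277 CPM in Cre driver controls. Its counterpart of muscle and other tissues, gys1, from the list of other pathway genes, rose in both models. It was at 18.4, 33.7, 14.2, 22.3 and 16.9 CPM in HepABC HCC, against 2.62, 3.29, 1.74, 7.19 and 2.5 CPM in non-transgenic controls (2.61 ± 0.40, adjusted p = 0.00078). It was at 6.33, 6.46, 8.51 and 6.72 CPM in CreLox HCC and 6.84 and 4.21 CPM in CreLox zebrafish without HCC, against 3.22, 3.95, 2.42 and 2.81 CPM in Cre driver controls (1.17 ± 0.24 with HCC, adjusted p = 0.026). Every fish with HCC was above every control.

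The liver phosphorylase pygl was at 456, 183, 345.5, 387 and 185 CPM in HepABC HCC, against 832, 967, 537, 420 and 957 CPM in non-transgenic controls. Tumour 317E5 overlapped control 317C5, and the log2 change of -1.25 ± 0.34 (adjusted p = 0.015) was -0.38 under library size, without a call (adjusted p = 0.33). In CreLox HCC it was at 1147, 790, 1352 and 1355 CPM, in CreLox zebrafish without HCC at 845 and 862 CPM, and in Cre driver controls at 722, 700, 1071 and 1354 CPM (0.27 ± 0.26 with HCC, adjusted p = 0.56). The brain form pygb rose in HepABC HCC, at 13.3, 26.9, 12.2, 12.6 and 15.7 CPM, against 3.61, 7.41, 4.78, 8.73 and 3.35 CPM in non-transgenic controls (1.54 ± 0.33, adjusted p = 0.0053).

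Glycogenin, gyg1 (ENSDARG00000011934), was at 20, 46.8, 39, 39 and 34.6 CPM in HepABC HCC, against 95.1, 99.7, 79.8, 83.9 and 103 CPM in non-transgenic controls (-1.36 ± 0.23, adjusted p = 0.0013). The groups were apart, and under library size the change was -0.48 without a call. The branching enzyme gbe1 (ENSDARG00000099524) was lower in both models, at 30.7, 46.4, 27.1 and 46.7 CPM in CreLox HCC, against 72.4, 72.4, 89.9 and 74.2 CPM in Cre driver controls (-1.03 ± 0.22, adjusted p = 0.028). It was at 39, 21.8, 39, 20.1 and 31.7 CPM in HepABC HCC, against 82.6, 82.7, 110.5, 92.3 and 128 CPM in non-transgenic controls (-1.71 ± 0.25, adjusted p = 0.00059). The CreLox call for gbe1 was lost under library size (adjusted p = 0.082). The remaining glycogenin identifier, ENSDARG00000059391, had 8.46 CPM in control fish 628 and at most 0.146 CPM in the other 19 fish.

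The identifiers ENSDARG00000060797 (pfkm), ENSDARG00000057661 (aldoc), ENSDARG00000025012 (tpi1), ENSDARG00000013750 (eno1), ENSDARG00000099860 (pkm) and ENSDARG00000014967 (g6pc1) stayed under 1 CPM in every fish and were not tested in either experiment. The glycogenin identifier ENSDARG00000059391, given above, was not tested either. The identifiers ENSDARG00000103826 (gpi) and ENSDARG00000014179 (pfkm) were tested in the CreLox experiment alone. The sperm-type dehydrogenase gapdhs was at 8.26 to 34.1 CPM and passed no test.

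The balance of isozymes was then read as the log2 ratio of summed counts within each library, with 0.5 counts added to each side, for 15 pairs of genes or gene groups. Read counts depend on transcript length, so the ratios compare groups and not the amounts of the forms. Differences between groups were tested by an exact two-sided permutation test over fish, with p-values adjusted over the 15 ratios of a comparison. In HepABC HCC, 11 ratios differed at an adjusted p under 0.05 and in 8 of them no fish overlapped. In CreLox HCC, 5 ratios had an exact permutation p = 0.029, the smallest that 4 against 4 fish allow, and adjusted p = 0.086. In CreLox zebrafish without HCC no p can go below 0.067 with 2 against 4 fish.

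The liver over other form ratio fell in HepABC HCC for glycogen synthase (gys2 over gys1) and glycogen phosphorylase (pygl over pygm and pygb), and rose for hexokinase (gck over hk1 and hk2). The glycogen synthase ratio was 3.96, 3.50, 5.26, 4.09 and 4.34 in HepABC HCC, against 7.24, 6.91, 7.63, 5.39 and 7.20 in non-transgenic controls, a difference of -2.64 (exact permutation p = 0.0079, adjusted p = 0.015, n = 5 each). The glycogen phosphorylase ratio was 5.02, 2.72, 4.74, 4.85 and 3.49 in HepABC HCC, against 7.34, 6.84, 6.52, 5.18 and 7.09 in non-transgenic controls, a difference of -2.43. The hexokinase ratio differed by 5.73. Each of these 3 ratios had no overlap between the groups and the same exact p, the smallest that 5 against 5 fish allow.

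The same direction was seen in CreLox HCC for glycogen synthase. The ratio was 5.34, 5.25, 4.74 and 5.42 in CreLox HCC and 5.37 and 5.83 in CreLox zebrafish without HCC, against 6.04, 5.51, 7.16 and 6.61 in Cre driver controls, a difference of -1.14 with HCC. It separated HCC fish from controls at the smallest p the design allows (exact p = 0.029, adjusted p = 0.086, n = 4 each). The glycogen phosphorylase ratio overlapped in the CreLox experiment (difference 0.34, exact p = 0.63, n = 4 each).

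The enolase ratio, eno1 over eno3, was higher in both models. It was -6.92, -6.97, -6.63 and -7.59 in CreLox HCC and -6.83 and -7.56 in CreLox zebrafish without HCC, against -8.00, -8.19, -8.95 and -8.52 in Cre driver controls. It was -4.62, -5.00, -5.33, -5.85 and -3.93 in HepABC HCC, against -8.16, -8.71, -7.87, -7.67 and -9.34 in non-transgenic controls. No fish overlapped in either experiment. The difference was 1.39 in CreLox HCC (exact p = 0.029, adjusted p = 0.086, n = 4 each) and 3.40 in HepABC HCC (exact p = 0.0079, adjusted p = 0.015, n = 5 each).

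**Figure D4:**
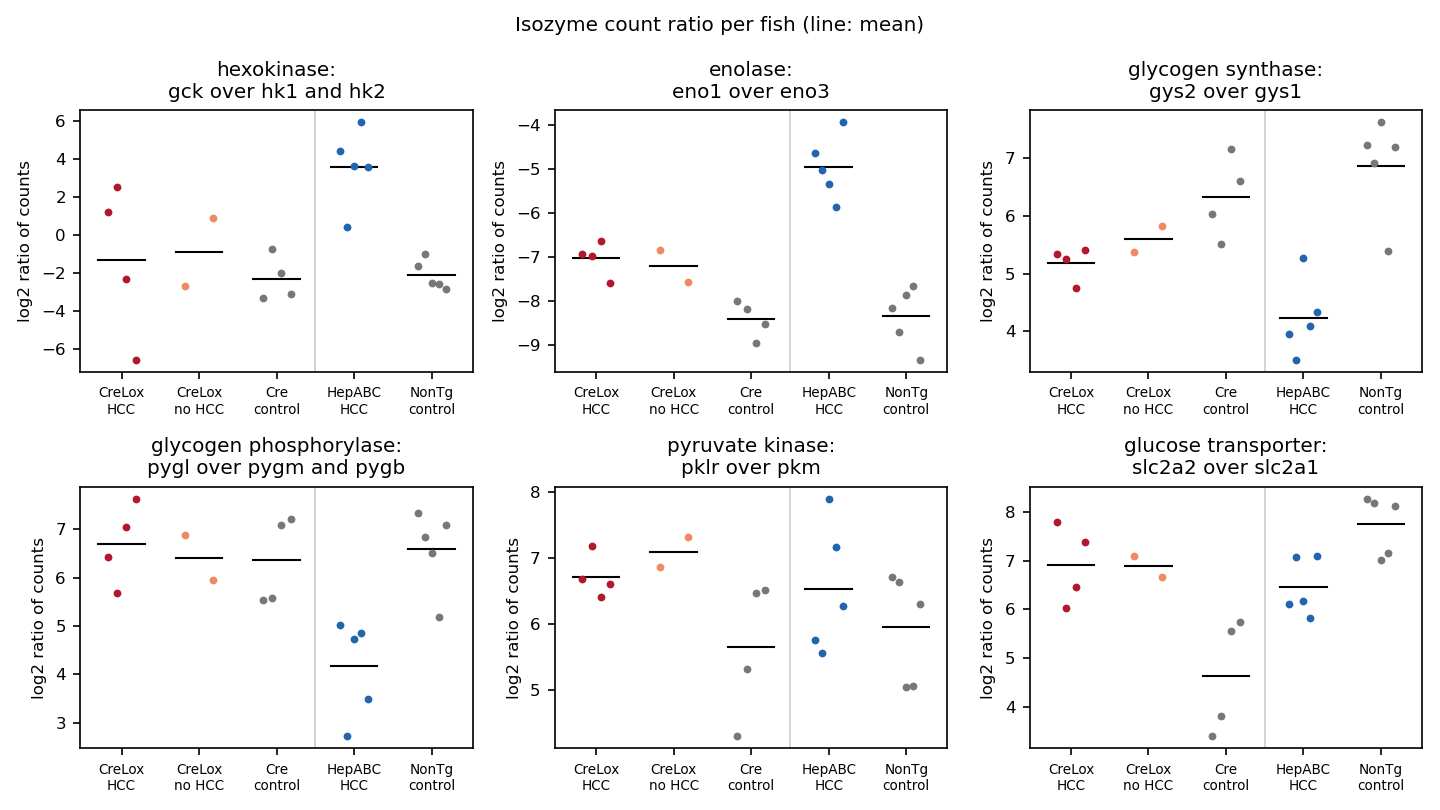
Log2 ratio of counts (vertical axis) for 6 pairs of isozymes in each fish, with the mean as a line, in CreLox HCC, CreLox without HCC, Cre driver controls, HepABC HCC and non-transgenic controls. The glycogen synthase ratio lies lower and the enolase ratio higher in the HCC fish of both models, the hexokinase and phosphorylase ratios separate HepABC groups alone, the glucose transporter ratio lies higher than in controls in CreLox fish with and without HCC, and the pyruvate kinase ratio of HCC fish overlaps with controls in both models.

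HCC fish overlapped with controls in the pyruvate kinase ratio in both models. The ratio of pklr over pkm differed by 0.58 in HepABC HCC (exact p = 0.33, n = 5 each) and by 1.07 in CreLox HCC (exact p = 0.086, n = 4 each). Both CreLox zebrafish without HCC were above every Cre driver control, with a difference of 1.44 (exact p = 0.13). The phosphofructokinase ratio of liver over platelet forms was lower in HepABC HCC (-1.37, exact p = 0.016, adjusted p = 0.026, n = 5 each), with overlap, and that of liver over muscle forms rested on as few as 1 count. The lactate dehydrogenase ratio of ldha over ldhb and ldhbb passed no test. The glucose transporter ratio of slc2a2 over slc2a1 went in opposite directions, higher in CreLox HCC by 2.28 (exact p = 0.029, adjusted p = 0.086, n = 4 each) and lower in HepABC HCC (-1.29, exact p = 0.024, adjusted p = 0.032, n = 5 each). It was higher by 2.25 in CreLox zebrafish without HCC, without overlap (exact p = 0.13). The HepABC difference had exact p = 0.056 when fish 317E5, 317E9, 317E10, 317C1, 317C2 or 317C8 was left out. The fructose bisphosphatase ratio had as few as 0 counts of fbp2 in a fish, so its difference of -2.72 in HepABC HCC depends on the count added.

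Ratios of opposing enzymes were read in the same way. In HepABC HCC, gck over the glucose 6-phosphatases was higher by 7.01 on the log2 scale and pklr over pck1 and pck2 by 1.597, both without overlap (exact p = 0.0079, adjusted p = 0.015, n = 5 each), and gys2 over pygl was higher by 1.34 (exact p = 0.024, adjusted p = 0.032). For pklr over pck1 and pck2 the margin was narrow, with the lowest tumour at 0.023 and the highest control at 0.004. In CreLox HCC the pfkl over fbp1 ratio was higher by 0.54, without overlap (exact p = 0.029, adjusted p = 0.086, n = 4 each), while pklr over pck1 and pck2 differed by 2.18 (exact p = 0.086). In CreLox zebrafish without HCC, 6 ratios did not overlap the controls, among them enolase (1.22), and their exact p-values were 0.067 to 0.13. With 2 against 4 fish there are only 15 arrangements, so lack of overlap is weak evidence. The 6 ratios are not separate results, as pklr is in both the pyruvate kinase ratio and the ratio over pck1 and pck2. The phosphofructokinase ratio of liver over muscle forms, also among them, rested on as few as 6 counts. Between CreLox HCC and CreLox zebrafish without HCC, the fish overlapped in all 15 ratios, and 0 of 37 members were called (edgeR, 0 at an unadjusted p under 0.05, and 0 by DESeq2 and voom), against 0.00594% of all genes.

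The size of change was compared between the models by an interaction term fitted to all 20 libraries. Of 38 members tested, 6 differed at an adjusted p under 0.05, against 11.3% of all genes. The HepABC change exceeded the CreLox change for gck by 5.55 ± 1.63 on the log2 scale (adjusted p = 0.035), for eno1 (ENSDARG00000022456) by 1.73 ± 0.44 (adjusted p = 0.018) and for pkm (ENSDARG00000099730) by 1.11 ± 0.30 (adjusted p = 0.026). It was below the CreLox change for pfkl (ENSDARG00000099755), at -1.68 ± 0.43 (adjusted p = 0.019), pgam1b, at -1.34 ± 0.28 (adjusted p = 0.0074), and pygl, at -1.52 ± 0.46 (adjusted p = 0.039). Under library size the 3 higher calls held, and pfkl, pgam1b and pygl lost theirs (adjusted p = 0.059, 0.060 and 0.093). The gck call was lost when fish 604, 628, 623, 317C5, 317C8 or 317E10 was left out, and without fish 628 the difference was 3.45 (adjusted p = 0.19). The pkm call was lost without fish 604, 628 or 624 (adjusted p 0.051 to 0.060), and the pygl call without any of 10 of the 18 fish (adjusted p up to 0.088). The experiments differ in age, treatment and removal of duplicate reads, which cannot be told apart from the models here.

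Other genes of glucose metabolism were counted from lists. Of all genes tested, 17.4% were higher and 16.2% lower in HepABC HCC, 50.1% and 5.38% under library size, and 2.39% were higher and 1.81% lower in CreLox HCC. Of 33 tested genes of the same pathways outside the member list, 5 were higher and 10 lower in HepABC HCC, and 1 of 34 was higher and 3 were lower in CreLox HCC. Under library size the HepABC counts were 13 higher and 4 lower. Under TMM scaling, the lower genes of HepABC HCC included ugp2 (ENSDARG00000005578), which makes the activated glucose for glycogen (-2.34 ± 0.48, adjusted p = 0.0038). They also included pgm1, which interconverts glucose phosphates (-1.35 ± 0.22, adjusted p = 0.0010). Values of ugp2 and pgm1 under library size are not given here. Of 24 genes of pyruvate and lactate handling, 8 were lower and 0 higher in HepABC HCC, where 11 had an unadjusted p under 0.05, while library size gave 9 higher and 2 lower, a smaller share higher than among all genes. In CreLox HCC 0 of 24 were called by edgeR, where 5 had an unadjusted p under 0.05 and DESeq2 called 3. Of all genes, 6998 of 15864 had an unadjusted p under 0.05 in HepABC HCC. In CreLox HCC 3952 of 16837 had one, and DESeq2 called 2128. Among pentose phosphate genes of HepABC HCC, pgd, which makes NADPH, was higher (1.17 ± 0.25, adjusted p = 0.0043), also under library size (2.02, adjusted p = 6.8e-05). The gene h6pd was lower under TMM scaling (-1.23 ± 0.30, adjusted p = 0.0095), without a call under library size (adjusted p = 0.35).

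Regulators of glucose metabolism, such as hormone receptors and transcription factors, were lower in 7 of 25 and higher in none in HepABC HCC. Their median log2 change was -0.63, while library size gave 3 higher and 2 lower and a median of 0.23. Of these 25, 11 had an unadjusted p under 0.05, against 6998 of all 15864 genes. In CreLox HCC 1 of 25 was higher, creb3l3a, a liver transcription factor (2.09 ± 0.31, adjusted p = 0.0088), and 1 was lower, the glucocorticoid-induced tyrosine aminotransferase gene tat (-2.37 ± 0.50, adjusted p = 0.031). Of 15 hypoxia genes, 1 was higher and 4 were lower in HepABC HCC, and 4 were higher and 2 lower under library size. The vessel growth factor gene vegfa (ENSDARG00000034700) was lower (-1.95 ± 0.27, adjusted p = 0.00045) and ankrd37 was higher (2.70 ± 0.81, adjusted p = 0.025). In CreLox HCC 0 of 16 were called by edgeR, where 6 had an unadjusted p under 0.05 and DESeq2 called 4. Over all 16837 genes these numbers were 3952 and 2128.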

How the data were processed

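Livers were dissected, and mRNA libraries made with a strand-specific kit were sequenced as paired reads. The deposited values are counts of reads per Ensembl gene, without normalization. The authors trimmed adapters, aligned reads to GRCz11 with STAR 2.6.1b and counted them with featureCounts 1.6.3; optical duplicates were removed in the CreLox experiment only. The strand setting of the counting is not given in the sources used here. Members and lists were chosen with earlier results of these data known.

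The quasi-likelihood test of edgeR 4.0.16, run in R 4.3.3 with TMM factors and filterByExpr, was fitted to the 10 libraries of each experiment, and to all 20 for the interaction, with p-values adjusted over all genes tested; the SE is the log2 change divided by the root of F. CPM uses TMM-scaled sizes. The test was checked on simulated counts. Per-fish values are given for members called in a CreLox comparison or the interaction, for the 12 largest called HepABC changes among genes averaging 1 log2 CPM or more, and for both sides of ratios whose groups did not overlap; other genes given per fish, and the genes named from the last lists, were chosen after their values were seen. Alternatives were DESeq2 1.42.0, its size factors, library size, looser and stricter filters, limma 3.58.1 voom with sample weights, the compared groups alone, and each fish left out. Lowest chi-square per degree of freedom between libraries of a group was 65.7, so none was a copy. The authors' DESeq2 results were not used. The labels list 4 CreLox zebrafish with HCC, more than the study's methods count, and all 4 were used. Some genes and 1 isozyme ratio that enter the counts are not reported here.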

Additional observations from a re-analysis of the deposited data

Results flagged for a closer look

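In 120 groups of 4 or 5 fish, over the 27 genes and 3 ratios whose values are given per fish, 1 fish stood apart from the rest of its group by Dixon's ratio in 5 groups, where chance gives about 1 in 20. Cre driver control fish 628 had 7.76 CPM of gck, against 0.507 to 0.606 CPM in the other controls, and 187 CPM of g6pc1a.1, against 575 to 663 CPM. HepABC tumour 317E10 had 5.34 CPM of gckr, against 8.59 to 9.45 CPM in the other tumours. Non-transgenic control 317C5 had 363 CPM of g6pc1a.1, against 660 to 715 CPM in the other controls. Cre driver control 621 had 89.9 CPM of gbe1 (ENSDARG00000099524), against 72.4 to 74.2 CPM in the other controls.

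The HepABC change differed from the CreLox change by the interaction test in 6 genes. The difference on the log2 scale was 5.55 for gck, 1.73 for eno1 (ENSDARG00000022456), 1.11 for pkm (ENSDARG00000099730), -1.68 for pfkl (ENSDARG00000099755), -1.34 for pgam1b and -1.52 for pygl (edgeR adjusted p 0.0074 to 0.039).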

How the results depend on the processing

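No paired analysis was possible because no fish is shared between groups. The 3 members called in CreLox HCC became 9 with DESeq2 (2 higher, 7 lower). Calls over all 16837 genes went from 707 to 2128 (1063 higher, 1065 lower). With 1 fish left out, 1 to 4 members were called, with 1 when fish 604, 605, 623 or 622 was left out. The 1 member called in CreLox zebrafish without HCC became 0 under library size, under the filter of 10 counts in every library, with voom and with the compared groups alone, and 0 to 1 with 1 fish left out. The 19 members called in HepABC HCC stayed between 15 and 19, and the 6 members of the interaction between 3 and 8, with 1 fish left out, with 3 when fish 604 or 628 was left out. The 5 CreLox HCC ratios at an exact p under 0.05 became 2 to 5 with 1 fish left out. For a difference of medians the number was 0, but with 4 against 4 fish that test cannot reach an exact p under 0.05. Of the members that passed their test, gapdh and pgam1a changed sign under library size. Among the alternatives added after seeing the data, leaving out fish 317C1 and 317C4 gave the glycogen cycle ratio (gys2 over pygl) an exact p of 0.054, and leaving out fish 317E5 and 317E6 gave the same p for the phosphofructokinase ratio of liver over platelet forms and for the glucose transporter ratio. The cause of these changes was not tested. At these depths genes under 1 CPM rest on few counts.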
